A study of Homo sapiens with 6 samples.

Results

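The shared proteins of small nucleolar ribonucleoproteins (snoRNPs) and 2 of their closest partners are encoded by 10 genes: DKC1 (dyskerin), NHP2, NOP10, GAR1, FBL (fibrillarin), NOP56, NOP58, NHP2L1, NAF1 and NOLC1. They were taken by name, in a choice made with earlier results of these data known. All 10 were found among the 16444 genes of the spike-in table and among the 12075 genes of the FPKM table (FPKM, fragments scaled to transcript length and library size). The cells were KMS-27, a human multiple myeloma line labelled as bone marrow, transfected either with control siRNA (siControl) or with siRNA that silences Che-1 (siChe-1), the AATF protein, which binds RNA polymerase II and also takes part in ribosome assembly in the nucleolus. Each group had 3 libraries, made after ribosomal RNA depletion from 500 ng of total RNA, with external RNA controls (ERCC spike-ins). The labels give neither the siRNA sequences nor the time after transfection. All cells were of the same single line, and the labels do not state separate cultures for the libraries of a group. The p-values therefore reflect only the spread among these libraries, part or all of which may be technical.

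snoRNPs are nucleolar particles that modify ribosomal RNA at positions chosen by the guide RNA they carry. Box H/ACA particles hold dyskerin, the pseudouridine synthase, with NHP2, NOP10 and GAR1, and turn uridine into pseudouridine. Box C/D particles hold fibrillarin, the methyltransferase, with NOP56, NOP58 and NHP2L1 (also called SNU13 or 15.5K), and methylate ribose. NAF1 holds the place of GAR1 while an H/ACA particle is assembled at its gene, and NOLC1 (Nopp140) is a phosphoprotein of nucleolus and Cajal body that binds both kinds of particle. The H/ACA proteins also bind the telomerase RNA, and inherited mutations of DKC1, NHP2 and NOP10 cause dyskeratosis congenita. Many guide RNAs are cut from introns of genes for proteins of the ribosome or the nucleolus, and some members are such hosts. The sequences of 3 guides that GENCODE (GRCh38) places inside members, on the same strand, show the letters by which these proteins know their RNA. In the H/ACA guides SNORA51, at chr20:2655067-2655198 on the plus strand within NOP56, and SNORA56, at chrX:154774998-154775126 on the plus strand within DKC1, the capitals mark the ACA box near the 3′ end. In the C/D guide SNORD57, at chr20:2656939-2657010 on the plus strand within NOP56, they mark the C box and the D box.
SNORA51: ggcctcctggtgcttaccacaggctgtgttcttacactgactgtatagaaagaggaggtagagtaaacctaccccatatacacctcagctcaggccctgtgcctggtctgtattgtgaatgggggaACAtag
SNORA56: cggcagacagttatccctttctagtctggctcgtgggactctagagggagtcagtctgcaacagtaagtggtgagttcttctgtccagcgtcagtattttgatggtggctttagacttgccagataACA
SNORD57: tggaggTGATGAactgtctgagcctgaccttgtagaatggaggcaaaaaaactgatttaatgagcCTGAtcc

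Levels were read on 2 scales, which answer different questions. Only RNA was measured, and no level given here is that of a protein. The FPKM values of all 6 libraries, rescaled so that the median gene was alike, show a gene relative to other genes. Their 3 values per group carry no replicate number and are called positions 1 to 3 of the deposited list. Reads divided by spike-in size factors show a gene relative to the added controls. That table holds the authors' means of 5 libraries, without siChe-1 replicate 3, and reads per library were recovered from it. The 5 libraries held 18928584 to 21512916 recovered gene reads, and 38.3, 56.1 and 57.2 gene reads per spike-in read in siControl replicates 1 to 3 against 22.7 and 19.2 in siChe-1 replicates 1 and 2. The siControl libraries had 519573, 351573 and 376170 spike-in reads, against 835414, 1041244 and 379232 for siChe-1 replicates 1 to 3. siChe-1 replicate 3, whose spike-in reads were within the siControl range, adds nothing to the values against spike-ins. Those values rest on the 2 siChe-1 libraries with the most spike-in reads. Replicate 3 enters the gene results only through the FPKM of all 6 libraries, and its gene reads were not recovered. The median gene had a log2 change of -1.25 in the authors' deposited table, and siControl replicate 1 stood apart from the other siControl libraries, with a median gene at -0.41 against 0.18 and 0.15 relative to the siControl mean. In such bulk RNA, fewer cells and less RNA per cell cannot be told apart, and the labels do not state the step at which spike-ins were added. The cause of the lower values against the spike-ins was not tested. Plasma cell markers were present, with all 7 above an FPKM of 1 (21.1 for CD38 to 8439 for IGJ in siControl), while none of the 4 B cell, 3 T cell and 3 myeloid markers was listed in the FPKM table. The summed FPKM of the plasma cell markers was 9217 in siControl and 10812 in siChe-1, most of it IGJ (8439 and 10055). XBP1 had a lower mean in siChe-1 (281 and 202), as did PRDM1 (40.8 and 39.5), and the other 5 had higher means. Of 3 stroma markers VIM alone was listed, at 545 and 626. The part of these markers in the results was not tested.

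The silenced gene, AATF, at chr17:35306175-35414171 (hg19, plus strand), was at a low level in all siChe-1 libraries. Rescaled FPKM of AATF was 93.9, 88.8 and 112 in siControl against 14.9, 14.8 and 17.2 in siChe-1, or 15.9% of the siControl mean. limma gave a log2 change of -2.57 ± 0.11 (SE) with an adjusted p of 0.000117.

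Relative to other genes, 6 of the 10 genes fell in siChe-1, to between 59.8% and 75.5% of siControl. NHP2 and FBL had means at 75.2% and 74.4% but did not pass the test, and the means of GAR1 and NAF1 were at 98.6% and 108%. Of the 9 members whose mean FPKM reached 10, 6 were called lower by limma (Benjamini-Hochberg adjusted p under 0.05 over all 6285 genes tested) and 0 higher (0 also at an unadjusted p under 0.05), where 15.1% of all genes tested were called lower. The 6 were DKC1, NOP10, NOP56, NOP58, NHP2L1 and NOLC1. In the same 6 all siChe-1 libraries lay below all siControl libraries, as they did in 22.8% of all genes tested. The median log2 change was -0.46 over the 9 members and -0.00396 over all genes tested. NAF1 was below the minimum. With a minimum of 1 the rescaling was taken anew over 10778 genes. All 10 members were then tested and 7 were called lower, against 13.8% of all genes.

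**Figure D1:**
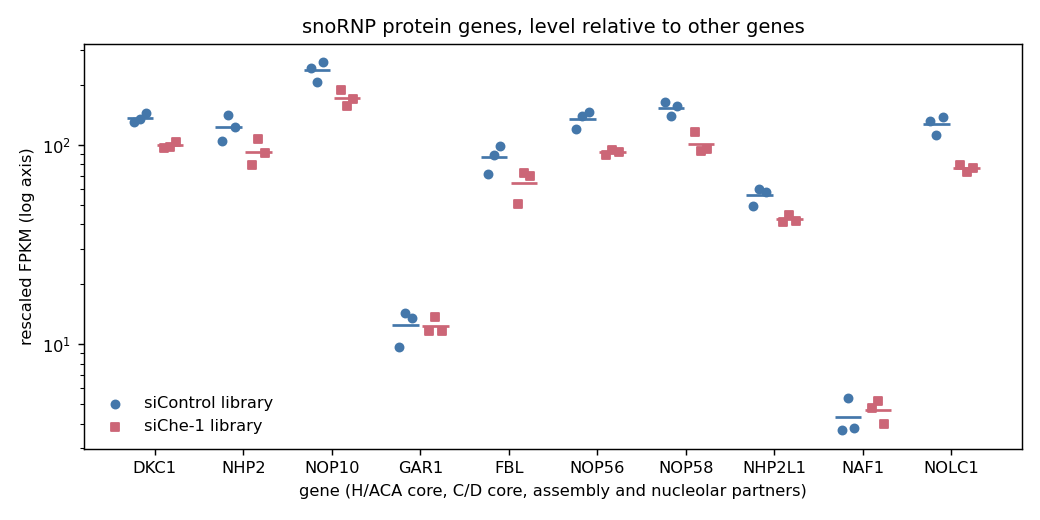
Rescaled FPKM of the 10 genes in each library (log axis), with siControl as blue circles, siChe-1 as red squares and a bar at each group's mean (n = 3). The siChe-1 squares lie below all siControl circles for DKC1, NOP10, NOP56, NOP58, NHP2L1 and NOLC1, and overlap them for NHP2, GAR1, FBL and NAF1.

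Of the H/ACA genes, that of dyskerin was tight among libraries. DKC1, at chrX:153991031-154005964 (hg19, plus strand), had a rescaled FPKM of 131, 136 and 145 in siControl against 97.0, 98.0 and 104 in siChe-1. No siChe-1 library reached the lowest siControl library, and the siChe-1 mean was 72.7% of that of siControl (137 ± 7.21 and 99.7 ± 3.86, SD, n = 3 each). The log2 change was -0.46 ± 0.09 (SE), with an adjusted p of 0.00792 by limma. NOP10, the smallest H/ACA protein, which lies against dyskerin's catalytic domain, had the highest FPKM of the 10. At chr15:34633917-34635362 (minus strand), it stood at 245, 208 and 260 in siControl against 189, 157 and 171 in siChe-1. The groups did not overlap. Its log2 change was -0.46 ± 0.12 with an adjusted p of 0.0259 by limma. That call was lost without the siControl library at position 1 or 3 or the siChe-1 library at position 2 or 3, with adjusted p up to 0.0904.

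NHP2, another of the H/ACA genes, had a mean nearly as far below its siControl level as DKC1, with more spread. It lies at chr5:177576465-177580961 (minus strand), and its FPKM was 104, 141 and 124 in siControl against 79.2, 107 and 91.1 in siChe-1. The highest siChe-1 library exceeded the lowest siControl library, so that the groups overlapped. The siChe-1 mean was 75.2% of siControl, and the gene was not called, with a log2 change of -0.41 ± 0.15 and an adjusted p of 0.0758 by limma. NHP2 was called under 6 of 15 other settings, among them the minimum of 1 (adjusted p 0.0369, limma), the deposited scaling (0.0365), and without the siControl library at position 1 (0.0467) or the siChe-1 library at position 2 (0.0400).

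GAR1, the H/ACA protein that joins last and helps dyskerin turn over its substrate, showed no detectable change relative to other genes. It lies at chr4:110736666-110745893 (plus strand) and was among the low members, at 9.67, 14.3 and 13.5 in siControl against 11.6, 13.7 and 11.6 in siChe-1. All siChe-1 libraries lay within the siControl range. The siChe-1 mean was 98.6% of siControl, with a log2 change of -0.0049 ± 0.15 and an adjusted p of 0.986 by limma. Without 1 library at a time the change ran from -0.17 to 0.09, with no call. NAF1, the assembly factor that GAR1 replaces, was lower still, at 3.70, 5.38 and 3.80 in siControl against 4.79, 5.19 and 3.98 in siChe-1, at chr4:164047860-164088073 (minus strand). Its groups overlapped. With the minimum of 1, whose rescaling differs from that of these values, NAF1 had a log2 change of 0.05 ± 0.14 and an adjusted p of 0.799 by limma.

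The genes of the box C/D proteins NOP56 and NOP58, the paired scaffold that holds fibrillarin over the guide, were among the clearest falls. NOP58, at chr2:203130515-203168384 (plus strand), had an FPKM of 163, 140 and 157 in siControl against 116, 93.3 and 95.1 in siChe-1. NOP56, at chr20:2633178-2639039 (plus strand), had 121, 140 and 146 against 89.3, 94.9 and 92.6. In neither gene did the groups overlap, and the siChe-1 libraries of NOP56 lay close together. NOP58 fell to 65.9% of siControl, with a log2 change of -0.60 ± 0.12 and an adjusted p of 0.00833 by limma. NOP56 fell to 68.0%, with a log2 change of -0.55 ± 0.10 and an adjusted p of 0.00663 by limma.

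The gene of fibrillarin itself was not called. FBL, at chr19:40325093-40337054 (minus strand), stood at 71.7, 89.1 and 99.1 in siControl against 50.8, 72.6 and 69.9 in siChe-1. The groups overlapped at the edge, since the siControl library at position 1 was below the siChe-1 library at position 2. The siChe-1 mean was 74.4% of siControl, with a log2 change of -0.43 ± 0.17 and an adjusted p of 0.0938 by limma, and no left-out library brought the adjusted p under 0.0546. It was called with the median of ratios taken over all genes before the filter (adjusted p 0.0493, limma).

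NHP2L1 is the C/D protein that first binds the guide's kink-turn, and it sits on U4 RNA of the spliceosome in the same way. At chr22:42069937-42084913 (minus strand), it stood at 49.7, 60.5 and 58.2 in siControl against 40.9, 44.8 and 41.5 in siChe-1. The groups did not overlap. NHP2L1 fell to 75.5% of siControl, with a log2 change of -0.39 ± 0.10 and an adjusted p of 0.0197 by limma. Its call was lost without the siControl library at position 3, without the siChe-1 library at position 1 or 3, and with its most abundant transcript alone, with adjusted p up to 0.0797.

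NOLC1, the nucleolar and Cajal body partner, had the largest fall of the 9 members tested. At chr10:103911933-103923627 (plus strand), its FPKM was 133, 113 and 138 in siControl against 79.7, 73.1 and 76.4 in siChe-1. The siChe-1 libraries were tight and far below each siControl library. NOLC1 fell to 59.8% of siControl, with a log2 change of -0.73 ± 0.10 and an adjusted p of 0.00260 by limma. DKC1, NOP56, NOP58 and NOLC1 were called in 6 of 6 fits that left out 1 library.

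By FPKM, which is per length, the order of levels in siControl was NOP10, NOP58, DKC1, NOP56, NOLC1, NHP2, FBL, NHP2L1, GAR1 and NAF1. From NOP58 down to NHP2 each gene's library range overlapped that of the next, so that neighbours in this stretch have no order beyond their spread. NOP58, with its lowest siControl library at 140, still lay above NOLC1, with its highest at 138. The ranges of the other neighbours were apart. The genes of 1 particle did not share an RNA level: DKC1 had 137 ± 7.21 and its partner GAR1 12.5 ± 2.48 (SD, n = 3). GAR1 per DKC1, a ratio of FPKM, was 0.0740, 0.105 and 0.0934 in siControl against 0.120, 0.140 and 0.112 in siChe-1. Every siChe-1 library had a higher ratio than every siControl library, with a log2 difference of 0.46 (two-sided exact permutation p = 0.1, the smallest that 3 against 3 allows; adjusted p = 0.3 over 3 ratios). NAF1 per DKC1 was 0.0283, 0.0396 and 0.0262 against 0.0494, 0.0530 and 0.0382, which overlapped (log2 difference 0.59, exact permutation p = 0.2, adjusted p = 0.3). FBL per NOP56 was 0.593, 0.635 and 0.680 against 0.569, 0.765 and 0.755, which also overlapped (log2 difference 0.12, exact permutation p = 0.5, adjusted p = 0.5). These ratios were chosen after the values had been seen.

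The FPKM table lists 16 transcripts of the 10 genes, and 9 were lower in the authors' deposited table at a q under 0.05 and 0 higher, where 10.3% of all transcripts tested were lower. For DKC1 and NHP2 nearly all signal was in 1 transcript: in the authors' deposited table the main DKC1 transcript went from 139 to 93.5 FPKM (log2 -0.57, q 0.000601) and the main NHP2 transcript from 125 to 88.2 (log2 -0.50, q 0.000601). The minor DKC1 transcript had 2.65 and 2.95 FPKM in the authors' deposited table (q 0.948). NOP56 had a noncoding variant beside its mRNA, and in the authors' deposited table it went from 36.0 to 19.5 FPKM (log2 -0.88, q 0.0137), the mRNA having a log2 of -0.58 (q 0.000601). The more abundant of 2 NHP2L1 transcripts went from 42.3 to 29.3 FPKM in the authors' deposited table (log2 -0.53, q 0.0110) and the other from 15.6 to 11.7 (log2 -0.42, q 0.402). FBL, which did not pass the limma test, was lower in the authors' deposited table (log2 -0.52, q 0.000601), as were NOLC1 (log2 -0.84), NOP10 (log2 -0.56) and NOP58 (log2 -0.70), each also at q 0.000601. GAR1 and NAF1 each had 2 transcripts, and none of these 4 had a q under 0.05 in the authors' deposited table, with log2 of -0.22 and 0.64 for GAR1 and -0.04 and 0.17 for NAF1.

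The guide RNAs varied widely between libraries. SNORA51, inside NOP56, had 109, 29.5 and 66.0 FPKM in siControl against 37.1, 53.3 and 21.6 in siChe-1, and the groups overlapped widely (log2 -0.87, q 0.829 in the authors' deposited table). On the spike-in scale the authors' deposited table gives means of 111 and 29.3 for SNORA51, a log2 of -1.93 and an adjusted p of 0.00208. On that scale its host NOP56 had a log2 of -1.88 and the median gene -1.25. There 63.5% of genes with a mean of at least 10 were called lower. SNORA56, inside DKC1, was listed at 0 in 4 of 6 libraries, with 6.32 in 1 siControl and 11.4 in 1 siChe-1 library (q 0.880 in the authors' deposited table). SNORD57 was not analysed here. Reads of a host's unspliced RNA and of its guide lie on the same strand, and the labels do not state whether they were told apart.

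Relative to the spike-ins every member was lower in siChe-1, as were most genes. The authors' deposited table called 9 of 10 members lower (adjusted p under 0.05), where 63.5% of its 12591 genes with a mean of at least 10 were called lower. GAR1 was the exception, with a log2 of -1.40 and an adjusted p of 0.0636 in the authors' deposited table. The members' median log2 was -1.75 and that of all these genes -1.25 in the authors' deposited table. Of the 10 members, 9 lay below the median of all genes and NAF1 above it, at -1.13. With recovered reads and the same spike-in factors, edgeR called 10 of 10 lower, where 84.3% of all genes were. Without siControl replicate 1, which stood apart, these were 10 of 10 and 93.1%, and without siChe-1 replicate 2 they were 8 of 10 and 22.0% (edgeR).

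**Figure D2:**
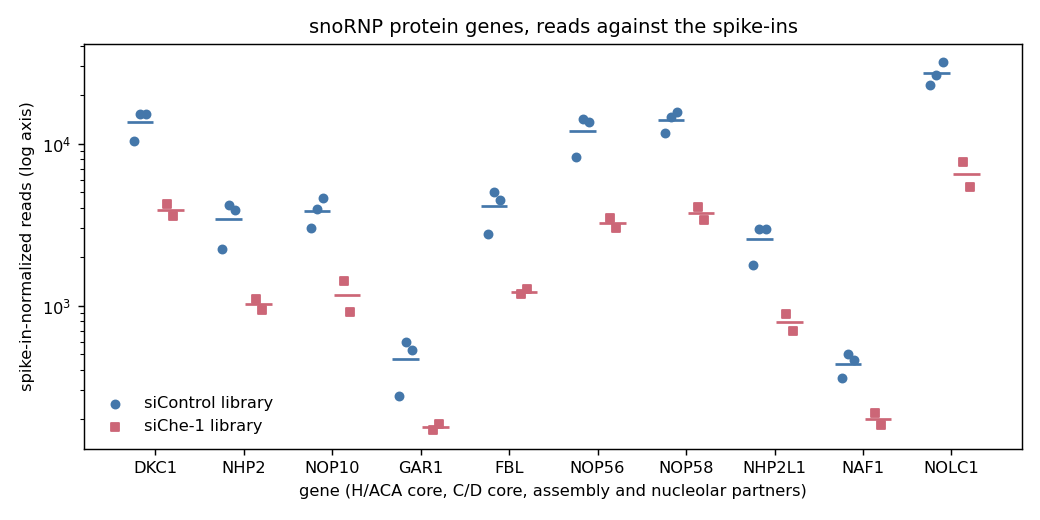
Spike-in-normalized reads of the 10 genes (log axis) in siControl replicates 1 to 3 (blue circles) and siChe-1 replicates 1 and 2 (red squares), with a bar at each mean. No siChe-1 square reaches a siControl circle in any of the 10 genes, as in 89.5% of all genes tested.

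The spike-in-normalized reads of NOLC1 were 23010, 26573 and 31710 in siControl against 7645 and 5387 in siChe-1. The authors' deposited table gives NOLC1 a log2 of -2.06 with an adjusted p of 3.94e-05, the largest fall of the 10 on this scale too. DKC1 had 10384, 15260 and 15274 in siControl against 4256 and 3560 (log2 -1.80, adjusted p 0.000325 in the authors' deposited table). In every member the groups were apart, as in 89.5% of all genes tested. In each, siControl replicate 1 was the lowest of its group.

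NOP58 had 11551, 14538 and 15625 normalized reads in siControl against 4067 and 3396 in siChe-1 (log2 -1.90, adjusted p 0.000151 in the authors' deposited table). NOP56 had 8220, 14228 and 13505 against 3480 and 3020 (log2 -1.88, adjusted p 0.00198 in the authors' deposited table). FBL had 2776, 5014 and 4485 against 1177 and 1260 (log2 -1.75, adjusted p 0.00487 in the authors' deposited table). In these 3 C/D genes both siChe-1 libraries were below the lowest siControl library, as in 89.5% of all genes tested. NHP2L1 had 1793, 2991 and 2963 against 888 and 695 (log2 -1.71, adjusted p 0.00289 in the authors' deposited table).

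NHP2 had 2249, 4177 and 3886 normalized reads in siControl against 1102 and 939 in siChe-1 (log2 -1.75, adjusted p 0.00699 in the authors' deposited table). NOP10 had 3002, 3949 and 4622 against 1428 and 910 (log2 -1.72, adjusted p 0.000499 in the authors' deposited table). Both H/ACA genes had siChe-1 values below every siControl library, as did 89.5% of all genes tested. GAR1 had 276, 596 and 534 against 170 and 185, and NAF1 356, 501 and 460 against 217 and 185 (adjusted p 0.0221 for NAF1 in the authors' deposited table). These 2 genes rested on few reads, with 248 to 369 recovered reads per library for GAR1 and 305 to 352 for NAF1, against 9336 to 10128 per siControl library for DKC1. By edgeR with spike-in factors GAR1 was called lower (log2 -1.40 ± 0.38, adjusted p 0.000613), as was NAF1 (log2 -1.13 ± 0.38, adjusted p 0.00440). The NAF1 call was lost without siChe-1 replicate 1 (adjusted p 0.0553, edgeR) or 2 (0.131), and the GAR1 call without siChe-1 replicate 2 (0.0564).

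The same recovered reads, scaled to other genes by TMM (edgeR's trimmed mean of log ratios), gave the relative picture again, from 5 of the same libraries. edgeR called 8 of 10 members lower, where 15.6% of all genes were called lower, and the members' median log2 change was -0.50 against -0.00832 for all genes. The 8 included NHP2 (log2 -0.49 ± 0.12, adjusted p 0.00636 by edgeR) and FBL (log2 -0.48 ± 0.13, adjusted p 0.0121 by edgeR), which the FPKM fit had not called. NOLC1 was again first (log2 -0.85 ± 0.13, adjusted p 0.000406 by edgeR), then NOP58 (log2 -0.68 ± 0.11, adjusted p 0.000559) and NOP56 (log2 -0.63 ± 0.10, adjusted p 0.000771). GAR1 (log2 -0.11 ± 0.18, adjusted p 0.669) and NAF1 (log2 0.10 ± 0.14, adjusted p 0.636) were not called by edgeR. The direction of NAF1 depended on the scaling, being below siControl against the spike-ins and slightly above it against other genes.

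**Figure D3:**
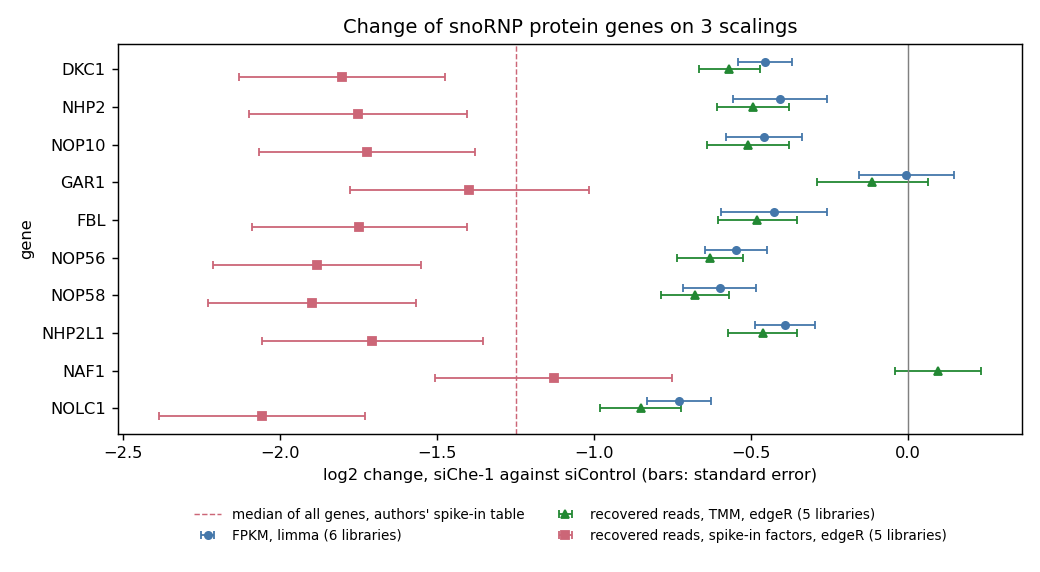
Log2 change of each gene, siChe-1 against siControl, with standard errors, by limma on FPKM (blue circles, 6 libraries), by edgeR with TMM (green triangles, 5 libraries) and by edgeR with spike-in factors (red squares, 5 libraries); NAF1 has no blue circle since it was below the FPKM minimum. GAR1 and NAF1 lie near 0 on the scales relative to other genes, and the dashed red line marks the median of all genes in the authors' deposited table, -1.25.

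The other genes of the snoRNP pathway were taken as 9 lists, also chosen with earlier results of these data known. With members left out they held 79 genes in all, of which SHQ1, WRAP53 and PARN stand in 2 lists each. Of the 61 that passed the FPKM minimum, limma called 28 lower and 1 higher, with a median log2 change of -0.29. Over all 6285 genes tested it called 948 lower (15.1%) and 949 higher, with a median of -0.00396. Without the siChe-1 library at position 3 the number of list genes called lower was 18, where 7.98% of all genes were. The chaperones that load the shared proteins had 5 of 10 lower, with a median of -0.36. They included RUVBL2, an ATPase of the R2TP complex (50.6 to 33.8 FPKM, log2 -0.56 ± 0.10, adjusted p 0.00594 by limma), C12orf45, a chaperone of NOP58 (43.3 to 24.8 FPKM, log2 -0.78 ± 0.14, adjusted p 0.00609 by limma), and HSP90AB1, the constitutive HSP90 (874 to 670 FPKM, log2 -0.38 ± 0.09, adjusted p 0.0186 by limma). SHQ1, the chaperone that holds dyskerin before it meets NAF1, was not called (12.7 ± 1.17 and 12.9 ± 1.90 FPKM, SD, n = 3 each; log2 0.00750 ± 0.13, adjusted p 0.972 by limma).

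Of the nucleolar and Cajal body partners 3 of 5 were lower, with a median of -0.55. NOP16, a nucleolar protein of ribosome assembly, fell from 55.7 ± 11.05 to 31.2 ± 1.16 FPKM (log2 -0.80 ± 0.13, adjusted p 0.00508 by limma), and GEMIN5, the RNA-binding subunit of the SMN complex, from 20.05 to 11.9 FPKM (log2 -0.70 ± 0.10, adjusted p 0.00304 by limma). COIL, the coilin scaffold of Cajal bodies, had 45.9 and 42.2 FPKM and was not called (log2 -0.12, adjusted p 0.351 by limma). Of the proteins that join U3, the C/D particle needed to cut the ribosomal RNA precursor, 4 of 8 were lower, with a median of -0.39. RRP9, the protein specific to U3, fell from 15.8 to 10.1 FPKM (log2 -0.60 ± 0.09, adjusted p 0.00333 by limma) and IMP3, which helps U3 pair with the precursor, from 104 to 72.6 FPKM (log2 -0.51 ± 0.08, adjusted p 0.00347 by limma).

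Of the spliceosomal partners of NHP2L1, 1 of 6 was lower and 1 higher, with a median of -0.15. These counts are near the shares over all genes tested, with 948 lower and 949 higher of 6285. PRPF4, a protein of U4/U6, fell (46.2 to 38.9 FPKM, log2 -0.24 ± 0.07, adjusted p 0.0359 by limma), and PPIH, its cyclophilin partner, was not called (153 and 125 FPKM, log2 -0.29, adjusted p 0.0828 by limma). PRPF8, the large scaffold of U5, rose from 26.9 to 35.5 FPKM (log2 0.39 ± 0.12, adjusted p 0.0412 by limma). However, 0 genes of the lists were called higher with the deposited scaling or in 5 of 6 fits that left out 1 library. Against the spike-ins PRPF8 had a log2 of -0.87 (adjusted p 0.0959 in the authors' deposited table), where the median gene was at -1.25.

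Of the snoRNA maturation and export factors 7 of 14 were lower, with a median of -0.28. C1D, a cofactor of the nuclear exosome, fell from 30.01 to 17.9 FPKM (log2 -0.72 ± 0.08, adjusted p 0.00134 by limma), PAPD5, the noncanonical poly(A) polymerase that tails these RNAs, from 18.5 to 12.9 FPKM (log2 -0.49 ± 0.09, adjusted p 0.00797 by limma), and XPO1, the export receptor, from 127 to 106 FPKM (log2 -0.25 ± 0.08, adjusted p 0.0481 by limma). Of the telomerase genes only 3 of 6 passed the minimum, with a median of -0.08. PARN, the exonuclease that trims the telomerase RNA and snoRNAs, fell from 41.3 to 31.9 FPKM (log2 -0.36 ± 0.08, adjusted p 0.0131 by limma), while TERC, the telomerase RNA itself and an H/ACA RNA, was not called (244 ± 80.7 and 285 ± 92.5 FPKM, SD, n = 3 each; log2 0.23 ± 0.28, adjusted p 0.568 by limma). NVL, an ATPase bound to telomerase, was not called (18.8 and 17.8 FPKM, log2 -0.08, adjusted p 0.543 by limma), and TERT, the reverse transcriptase, was under the minimum at 0.835 and 0.414 FPKM.

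Enzymes that modify RNA without a guide moved in part as well. Of the stand-alone pseudouridine synthases 4 of the 5 that passed the minimum, out of 12, were lower, with a median of -0.45. PUS7 fell from 37.1 ± 2.12 to 20.5 ± 1.59 FPKM (log2 -0.83 ± 0.08, adjusted p 0.000969 by limma) and TRUB2, a mitochondrial enzyme, from 58.4 to 42.2 FPKM (log2 -0.46 ± 0.09, adjusted p 0.00921 by limma), while TRUB1 had 46.9 and 58.4 FPKM and was not called (log2 0.32, adjusted p 0.162 by limma). Of the stand-alone methyltransferases and acetyltransferases of ribosomal RNA 4 of 11 were lower, with a median of -0.28. NOP2, a cytosine methyltransferase of the nucleolus, fell from 17.5 to 12.5 FPKM (log2 -0.45 ± 0.08, adjusted p 0.00603 by limma) and DIMT1, which dimethylates adenosine, from 54.2 to 40.2 FPKM (log2 -0.42 ± 0.08, adjusted p 0.00724 by limma). TRMT112, a partner of several methyltransferases, had 191 ± 35.8 and 237 ± 37.1 FPKM (log2 0.31, adjusted p 0.217 by limma).

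**Figure D4:**
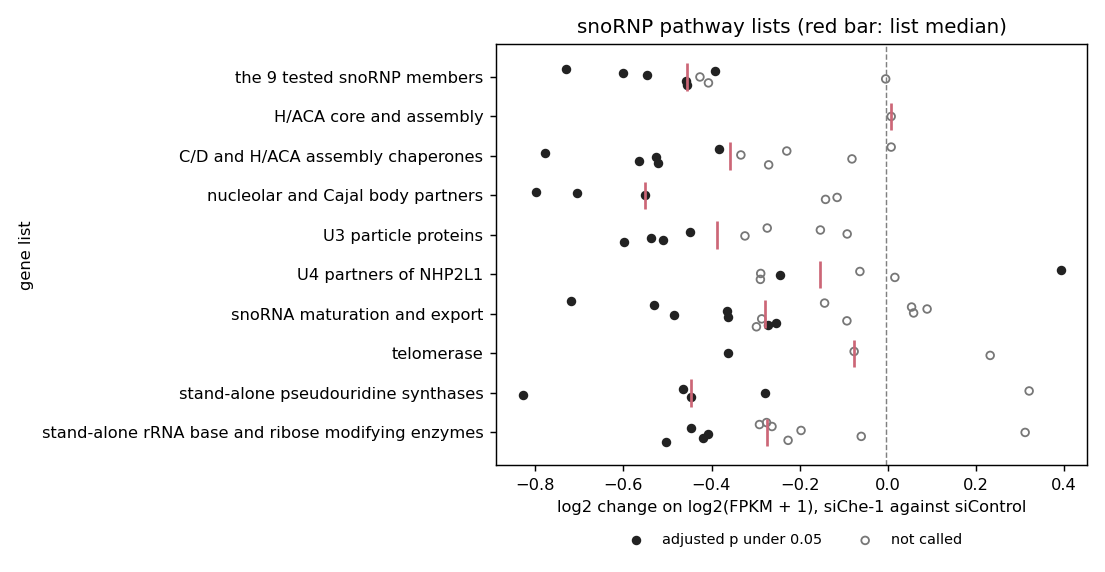
Log2 change on log2(FPKM + 1), siChe-1 against siControl, of each tested gene by list, with filled points for genes called by limma, open points for the others, a red bar at each list's median and a dashed line at the median of all genes tested. In each list with more than 3 tested genes the median lies below the dashed line, and PRPF8 is the single filled point above it.

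Among tested genes other than the members, those whose profile over the 6 libraries came closest to the members' median profile were EMG1, REEP5 and PGAM1, with Euclidean distances of 0.0911, 0.102 and 0.119 on log2(FPKM + 1), each gene minus its siControl mean. EMG1, a methyltransferase that acts on a pseudouridine of the small ribosomal subunit, had 13.8, 16.6 and 16.2 FPKM in siControl against 10.3, 10.5 and 11.05 in siChe-1. REEP5, which shapes the endoplasmic reticulum, had mean FPKM of 38.0 and 28.0, and PGAM1, a glycolytic enzyme, 204 and 149. Of the 9 tested members, whose own values make up that profile, DKC1 lay closest to it (0.119) and GAR1 farthest (0.851).

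Promoters were looked at because 6 of the 9 members tested on FPKM were called lower. RefSeq promoters (GRCh38.p14, 250 bases before to 50 after the annotated start) were at hand for 6 of the 10 genes, DKC1, NHP2, NOP10, GAR1 (with 2 starts), FBL and NOP56. They were searched on both strands for the E-box CACGTG, the site of MYC and its relatives, and for the NRF1 palindrome, whose letters are the capitals in the DKC1 window. The motifs do not overlap each other. The E-box was in 3 of the 6 genes, with GAR1 counted over its 2 starts, and in 7.26% of all 35116 promoters, each counted singly. The NRF1 site was in 1 of the 6 and in 1.24% of all promoters. The E-box stood in NOP10, which was called lower relative to other genes by limma, and in GAR1 and FBL, which were not. Of the genes searched without an E-box, DKC1 and NOP56 were called and NHP2 was not. A part of the motif in these changes was not tested. The windows below are 30 bases long with the motif in capitals, and positions count from the annotated start as 1, with no 0. They lie at chrX:154762709-154762738 on the plus strand (DKC1, position -145), chr15:34343289-34343318 and chr15:34343130-34343159 on the minus strand (NOP10, positions -170 and -11), chr4:109815781-109815810 on the plus strand (GAR1, position 32 of the second start) and chr19:39846356-39846385 on the minus strand (FBL, position 7).
DKC1: gaggctcgaaGCGCATGCGCggtctcgccc
NOP10, upstream: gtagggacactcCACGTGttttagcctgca
NOP10, near the start: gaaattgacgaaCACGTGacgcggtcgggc
GAR1: gggccagaggggCACGTGgcgccggtgagt
FBL: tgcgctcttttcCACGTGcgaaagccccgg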

How the data were processed

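RNA was sequenced from 6 KMS-27 libraries, 3 siControl and 3 siChe-1, grouped by their titles. The submitters' processing notes name hg19 and the tools HTSeq, DESeq2, TopHat, Cufflinks and Cuffdiff, without versions, and the labels do not state strand use in counting. The deposited tables hold raw spike-in read counts for 92 spike-ins per library. They also hold the authors' mean signal per group (read counts over spike-in size factors) and their fold ratio, its log2, p-value and adjusted p, for 16444 genes. The deposited transcript table holds the authors' FPKM, log2 ratio, p-value and q-value for 18750 transcripts.

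The overall mean weighed siControl as 3 of 5 libraries, and low means were whole reads divided by size factors in 100% of cases with siChe-1 replicates 1 and 2 and in 0% with replicates 1 and 3. Reads per library were recovered for 16284 genes (99.0%, relative tolerance 8e-15). Of the others, 123 with a mean above 30000 were not attempted and 37 had no solution.

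FPKM was summed by gene, kept at a mean of at least 10 (6285 genes), rescaled by the median of ratios and tested as log2(FPKM + 1) with limma 3.58.1 with a trend, where folds of low genes are understated. Recovered reads were tested with edgeR 4.0.16 (quasi-likelihood, mean of at least 10) and, as an alternative, DESeq2 1.42.0, in R 4.3.3. The authors' adjusted p was counted where the mean was 10 or more. All p-values are two-sided and Benjamini-Hochberg adjusted, with a threshold of 0.05. The fits were also run on simulated data, but the simulated reads had a fixed spread and no shift common to all genes of a library. Alternatives were other minimums, pseudocounts and scalings, single transcripts, a replicate block and leaving out each library.

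Named genes are AATF, the 10 members, the 2 of each list with the lowest p and its most abundant gene, genes inside a member's position, and the 3 genes with the closest profile. TERT was named after its values were seen. The members and lists were chosen with earlier results of these data known.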

Additional observations from a re-analysis of the deposited data

How the results depend on the processing

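On FPKM the count of members called lower ran from 5 to 8 over 9 other settings (11.3% to 20.4% of all genes lower) and from 4 to 6 when 1 library was left out (7.98% to 14.2%), against 6 (15.1%). The pathway lists' count lower ran from 18 to 28 and their count higher from 0 to 1 with 1 library left out, and 0 were higher with the deposited scaling; the cause was not tested. Over all genes tested, calls split into 949 higher and 948 lower, but 592 and 1279 with the deposited scaling, 1221 and 713 with upper quartile rescaling, and 634 and 1211 with the median of ratios over all genes.

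Against the spike-ins the count lower, 9 in the authors' table, was 10 by edgeR with either minimum and by DESeq2 (73.2% to 85.1% of all genes lower) and 8 to 10 with 1 library left out (22.0% to 93.1%), where a lone siChe-1 library is assumed to vary like siControl. With the replicate number as a block it was 0 by edgeR (8 at an unadjusted p under 0.05), which then called 0.467% of all genes lower (members' adjusted p 0.217 to 0.296, edgeR), and the sizes stayed at -1.08 for NAF1 to -1.95 for NOLC1. In a fit with this block siControl replicate 3 had no siChe-1 partner, so the comparison rested on replicates 1 and 2. Little was then left from which to estimate the spread. The labels give only a shared number, and same-numbered libraries deviated together with a correlation of 0.24 over 12431 genes, for 2 shared numbers. With TMM and the replicate block, added after seeing the data, 8 were lower (17.2% of all genes), as with TMM (15.6%) and the median of ratios (15.5%) without it, all of which scale to other genes. NAF1 turned to 0.10 with TMM, 0.10 with the median of ratios and 0.0499 with TMM and the block. FPKM columns carry no replicate number, so no block was fitted there. GAR1 and NAF1, with at most 369 reads a library, and the guide RNAs limit what small changes could be seen.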
